A study of Homo sapiens with 6 samples.

Results

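The miR-15/miR-16/miR-424 and miR-103/miR-107 families were followed in the human anaplastic thyroid cancer line SW1736 through 8 mature miRNAs chosen by name: hsa-miR-15a-5p, hsa-miR-15b-5p, hsa-miR-16-5p, hsa-miR-195-5p, hsa-miR-424-5p, hsa-miR-503-5p, hsa-miR-103a-3p and hsa-miR-107. They are 8 of the 2656 rows of the miRNA table, of which 1129 had at least 1 count, and all 8 had a count in at least 1 library. Total RNA of cells kept for 72 h in hypoxia (2% O2, n = 3 libraries) or in normoxia (21% O2, n = 3 libraries) was made into small RNA libraries by CATS, a method that tails each RNA and copies it without ligation. All libraries come from this 1 cell line with no other treatment named, and the labels number the replicates without saying whether they are separate cultures, so a p-value here speaks only of the spread among these libraries, which may be technical. The libraries hold RNA of whole cultures, so less RNA per cell and fewer cells that hold it cannot be told apart.

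miRNAs are short RNAs that guide Argonaute proteins to mRNAs by pairing of the seed, bases 2 to 8 from the 5′ end, and so lower the output of those mRNAs. The group of miR-15 and miR-16 is known for restraining the cell cycle and BCL2, and its copy inside DLEU2 is lost in many chronic lymphocytic leukemias. miR-424 and miR-503 are made from neighbouring hairpins, and miR-424 has been described as induced by low oxygen in endothelial cells. miR-103 and miR-107 arise from introns of pantothenate kinase genes, have been listed among hypoxia-responsive miRNAs and are known for repressing DICER1. miR-16 is also a common internal reference in RT-qPCR, and the study scaled miR-210 to it, together with a spiked-in worm miRNA. The study describes adding the spike to the extracellular fractions and names none for the RNA of cells.

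The mature sequences are shown because the families are defined by their seeds and because some pairs of members are separated in counting by only a few bases. All 8 were matched by name in RefSeq (GRCh38.p14). Capitals mark the seed.
hsa-miR-15a-5p: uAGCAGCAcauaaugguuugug
hsa-miR-15b-5p: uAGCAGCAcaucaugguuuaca
hsa-miR-16-5p: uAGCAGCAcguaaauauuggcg
hsa-miR-195-5p: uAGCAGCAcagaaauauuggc
hsa-miR-424-5p: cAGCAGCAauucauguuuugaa
hsa-miR-503-5p: uAGCAGCGggaacaguucugcag
hsa-miR-103a-3p: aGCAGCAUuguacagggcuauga
hsa-miR-107: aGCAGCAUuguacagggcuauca

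The seeds put the members in 3 groups. AGCAGCA is shared by miR-15a-5p, miR-15b-5p, miR-16-5p, miR-195-5p and miR-424-5p, and by 7 of 2370 human mature miRNAs in RefSeq (0.295%). The other carriers are miR-497-5p, with 2 counts over all libraries, and miR-6838-5p, with 1 count. miR-503-5p alone carries AGCAGCG. miR-103a-3p and miR-107 are the only carriers of GCAGCAU. The 6 letters GCAGCA fill positions 3 to 8 in the AGCAGCA group and positions 2 to 7 in miR-103a-3p and miR-107, and miR-503-5p does not hold them.

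Counted from the 5′ end, miR-103a-3p and miR-107 differ at 1 of 23 positions, G22C, the next to last base. A read that stops before it cannot be given to either one by its letters. miR-16-5p and miR-195-5p differ at 2 of 21 positions, G10A and U11G, and miR-15a-5p and miR-15b-5p at 4 of 22, A12C, G20A, U21C and G22A. The authors trimmed poly(A) from the reads, and miR-15b-5p, miR-103a-3p and miR-107 end in 1 A and miR-424-5p in 2. The split between miR-103a-3p and miR-107 is given as uncertain because reads that stop before position 22 fit both.

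Most members lie in pairs of hairpins (GRCh38, host genes from GENCODE 44). MIR15B (chr3:160404588-160404685) and MIR16-2 (chr3:160404745-160404825) lie 59 bases apart on the plus strand, in an intron of all 13 transcripts of SMC4 that span them. MIR16-1 (chr13:50048973-50049061) and MIR15A (chr13:50049119-50049201) lie 57 bases apart on the minus strand, in an intron of all 15 spanning transcripts of the long non-coding gene DLEU2. MIR503 (chrX:134546328-134546398) lies in an intron of the long non-coding gene MIR503HG, and MIR424 (chrX:134546614-134546711), 215 bases away, overlaps the start of that gene. MIR103A1 (chr5:168560896-168560973), MIR103A2 (chr20:3917494-3917571) and MIR107 (chr10:89592747-89592827) lie in introns of PANK3, PANK2 and PANK1. MIR195 (chr17:7017615-7017701) lies within the long non-coding gene MIR497HG, exonic in 1 and intronic in 1 of the 2 transcripts that span it, and 209 bases from MIR497. All of these hosts are on the strand of their hairpin. Mature miR-16-5p is the same molecule from MIR16-1 and MIR16-2, and miR-103a-3p the same from MIR103A1 and MIR103A2.

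The miRNA table held 211656 to 272740 counts per hypoxic library and 210432 to 236508 per normoxic library, and 1 count was worth 3.61 to 4.87 CPM, the count scaled to 1000000 miRNA counts with TMM factors of the miRNA table. The members together took 0.254% to 0.297% of the miRNA counts in hypoxia and 0.245% to 0.267% in normoxia. Of the thyroid markers, PAX8 (170 to 261 fragments per library) and FOXE1 (28 to 59) were present, while TG, TSHR, SLC5A5, NKX2-1 and DUOX2 had 0 to 11 fragments per library. Red cells are rich in miR-16, and their miRNA miR-451a had 1 count over all libraries and miR-144-3p had 2. The hemoglobin genes HBA1 and HBB had 7 to 21 fragments per library. miR-486-5p, which red cells and muscle hold, averaged 765 ± 131 CPM in hypoxia and 817 ± 214 CPM in normoxia (SD, n = 3 each). The part of red cell RNA in the member levels was not tested.

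None of the 6 members that could be tested passed the test between hypoxia and normoxia. Their fitted fold changes ran from 0.875 for miR-103a-3p to 1.22 for miR-107, against 6.13 for miR-210-3p, the best known hypoxia-induced miRNA. By the quasi-likelihood test of edgeR, with Benjamini-Hochberg adjustment of the 194 miRNAs, 0 of 6 tested members passed an adjusted p of 0.05, and 0 had an unadjusted p under 0.05, against 17 of all 194 (8.76%). DESeq2 and limma-voom also called 0. Of the 194 miRNAs 1 was called (0.515%), miR-210-3p. The median log2 fold change was 0.08 for the 6 tested members and 0.02 for all 194 tested. miR-503-5p and miR-195-5p did not pass the filter on low counts (43.97 CPM, the level of 10 counts, in at least 3 libraries).

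**Figure D1:**
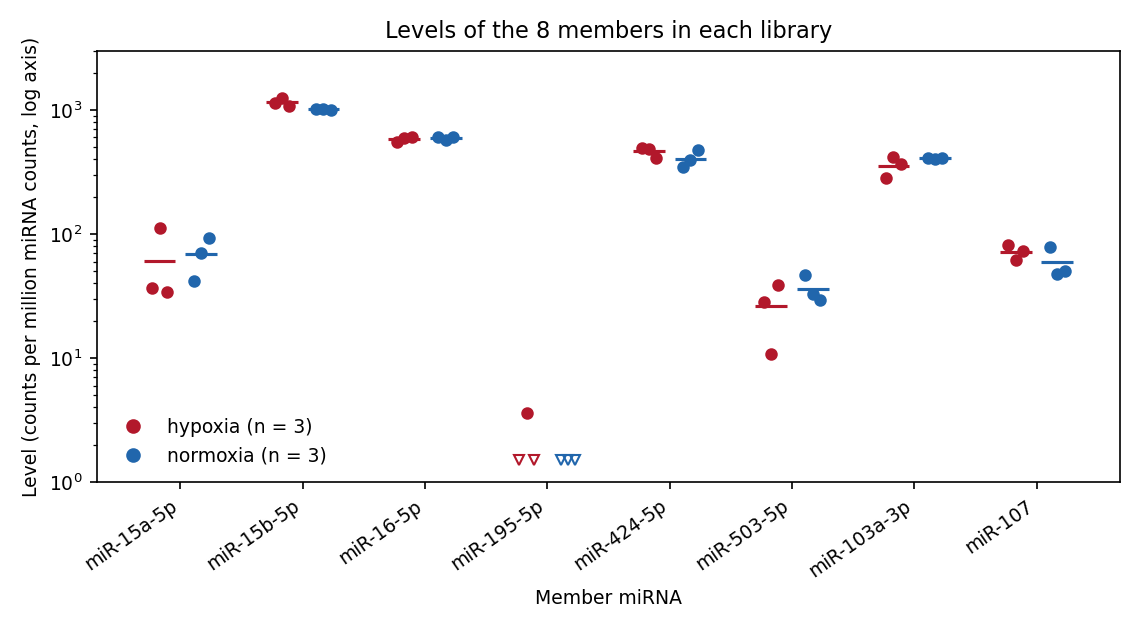
Level of each member in each library, in CPM on a log axis, with hypoxic libraries at the left of each pair and normoxic libraries at the right. Points are libraries, bars are means of 3, and open triangles are libraries with 0 counts. miR-15b-5p was highest (1085 to 1241 CPM in hypoxia, 1008 to 1025 CPM in normoxia), and miR-195-5p had 1 count in all.

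miR-15b-5p, from the SMC4 intron, was the most abundant member and ranked 45 by level in the miRNA list. It had 282, 344 and 223 counts in hypoxia replicates 1 to 3 and 221, 214 and 239 in normoxia replicates 1 to 3. In CPM these were 1146, 1241 and 1085 in hypoxia, against 1025, 1012 and 1008 in normoxia. Each hypoxic library lay above each normoxic one, which held for no other member, whereas 28 of the 194 tested miRNAs (14.4%) had groups that did not overlap in either direction. At 1 of 6 tested members the share is near that background. The log2 fold change was 0.19 (edgeR, standard error 0.107, adjusted p = 0.690), with a 95% interval of the fold from 0.970 to 1.34.

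miR-16-5p, which MIR16-2 in the same intron and MIR16-1 in DLEU2 both give, had 136, 166 and 124 counts in hypoxia and 131, 121 and 143 in normoxia. The levels were 553, 599 and 603 CPM in hypoxia, against 608, 572 and 603 CPM in normoxia. The groups overlapped almost wholly, with means of 585 ± 28.1 CPM in hypoxia and 594 ± 19.4 CPM in normoxia (SD, n = 3 each). The log2 fold change was -0.02 (edgeR, standard error 0.124, adjusted p = 0.985). The 95% interval of the fold, 0.814 to 1.19, bounds the change only as scaled within the miRNA table. With the miRNA and mRNA tables scaled together the log2 fold change was 0.07, so its direction turned. The median of all tested miRNAs moved to 0.11 with it.

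miR-424-5p, from the X chromosome, had 122, 134 and 84 counts in hypoxia, against 75, 83 and 112 in normoxia. Its levels were 496, 484 and 409 CPM in hypoxia and 348, 392 and 472 CPM in normoxia. Hypoxia replicate 3 lay below normoxia replicate 3, so the groups overlapped, and the log2 fold change, 0.20 with a standard error of 0.162, was within the spread (adjusted p = 0.690 from edgeR). The interval of the fold ran from 0.894 to 1.47.

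miR-15a-5p, from the DLEU2 intron, was scarce and uneven. It had 9, 31 and 7 counts in hypoxia and 9, 15 and 22 in normoxia, which gave 36.6, 112 and 34.1 CPM in hypoxia, against 41.8, 70.9 and 92.8 CPM in normoxia. Hypoxia replicate 2 held the highest value of the 6 and hypoxia replicate 3 the lowest. The log2 fold change was -0.13 (edgeR, standard error 0.495, adjusted p = 0.985), with an interval of the fold from 0.429 to 1.95. It was -0.95 without hypoxia replicate 2, and 0.14, 0.11 and 0.13 without normoxia replicate 3, hypoxia replicate 1 and hypoxia replicate 3, so no direction can be given.

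The remaining members with these seeds were near the floor. miR-503-5p had 7, 3 and 8 counts in hypoxia and 10, 7 and 7 in normoxia (26.1 ± 14.2 CPM in hypoxia and 36.3 ± 8.89 CPM in normoxia, SD, n = 3 each). miR-195-5p, which differs from miR-16-5p by the 2 bases above, had 1 count in hypoxia replicate 2 and 0 in the other libraries. A count of 0 still allows 3 counts, or 12.2 to 14.6 CPM in those libraries, by counting error alone.

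miR-103a-3p had 70, 115 and 76 counts in hypoxia and 89, 85 and 97 in normoxia. In CPM these were 284, 415 and 370 in hypoxia, against 413, 402 and 409 in normoxia. The normoxic libraries were close together and hypoxia replicate 2 lay above them, so the groups overlapped. The log2 fold change was -0.19 (edgeR, standard error 0.169, adjusted p = 0.715), with an interval of the fold from 0.676 to 1.13.

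miR-107, which differs from it by the 1 base shown above, had 20, 17 and 15 counts in hypoxia and 17, 10 and 12 in normoxia. Its levels were 81.3, 61.3 and 73.0 CPM in hypoxia, against 78.9, 47.3 and 50.6 CPM in normoxia. Normoxia replicate 1 lay among the hypoxic libraries. The log2 fold change was 0.28 (edgeR, standard error 0.339, adjusted p = 0.846), and the interval of the fold, 0.725 to 2.04, takes in 1 and reaches past 2.

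**Figure D2:**
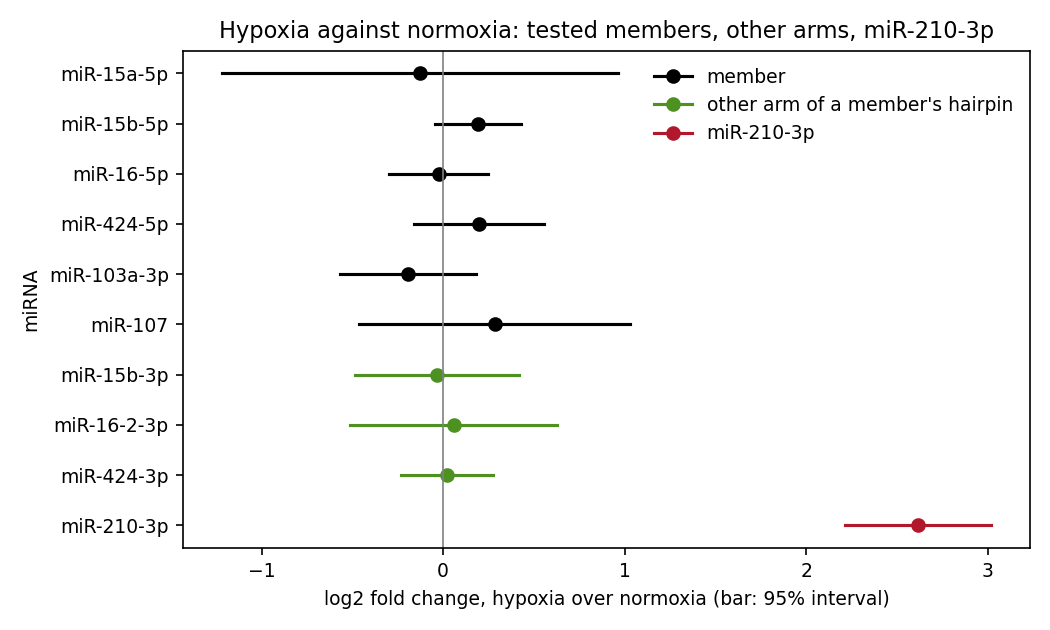
Log2 fold change, hypoxia over normoxia, with its 95% interval from edgeR, for the 6 tested members (black), the 3 tested other arms of their hairpins (green) and miR-210-3p (red). Every member's interval and every other arm's interval takes in 0, and miR-210-3p stands at 2.62.

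The order of the levels was miR-15b-5p, miR-16-5p, miR-424-5p, miR-103a-3p, then miR-107 and miR-15a-5p, then miR-503-5p and miR-195-5p. The mature forms are 21 to 23 bases long, so levels were not divided by length. Capture of different sequences was not calibrated, so the order is one of counts and not of molecules. In both groups miR-15b-5p lay above miR-16-5p, and miR-16-5p above miR-424-5p, in every library. miR-424-5p and miR-103a-3p overlapped within each group, as did miR-107 and miR-15a-5p, and these neighbours did not differ beyond their spread. Within the AGCAGCA group miR-15b-5p made up 46.3% to 51.4% of the counts, miR-16-5p 24.6% to 30.0%, miR-424-5p 17.2% to 22.2% and miR-15a-5p 1.60% to 4.59% over the 6 libraries.

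Summed over its members, the AGCAGCA group stood at 2231, 2439 and 2131 CPM in hypoxia, against 2023, 2047 and 2176 CPM in normoxia. The means were 2267 ± 157 CPM in hypoxia and 2082 ± 82.4 CPM in normoxia (SD, n = 3 each), a ratio of 1.09 with overlapping groups. The miR-103a-3p and miR-107 pair stood at 366, 476 and 443 CPM in hypoxia, against 492, 449 and 460 CPM in normoxia, a ratio of 0.917, again with overlap. The sum of the pair does not depend on how reads were split between its members. All 8 members summed to 2722 ± 178 CPM in hypoxia and 2586 ± 71.2 CPM in normoxia (SD, n = 3 each), and no sum was tested.

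Ratios within a library do not depend on the scaling. Of 5 ratios between members, miR-15b-5p to miR-16-5p was the only one without overlap, at 2.07, 2.07 and 1.80 in hypoxia, against 1.69, 1.77 and 1.67 in normoxia (two-sided exact permutation, p = 0.1, the smallest that 3 libraries against 3 allow, adjusted p = 0.5 over the 5). miR-424-5p to miR-16-5p averaged 0.794 ± 0.110 in hypoxia and 0.681 ± 0.105 in normoxia (SD, n = 3 each; exact permutation p = 0.3). miR-107 to miR-103a-3p was 0.286, 0.148 and 0.197 in hypoxia, against 0.191, 0.118 and 0.124 in normoxia, with overlap (exact permutation p = 0.2). The ratios of miR-15a-5p to miR-16-5p and of miR-503-5p to miR-424-5p overlapped as well (exact permutation p = 0.7 and 0.4). miR-195-5p had too few counts for a ratio.

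The other arm of each hairpin is a second readout that the choice of members did not use. miR-424-3p had more counts than the member miR-424-5p in every library, with 423, 421 and 309 in hypoxia and 306, 317 and 415 in normoxia. The 3p arm held 2191 of the 2801 counts of both arms (78.2%, and 75.9% to 80.3% by library). The ratio of 5p to 3p was 0.288, 0.318 and 0.272 in hypoxia, against 0.245, 0.262 and 0.270 in normoxia. The hypoxic ratios all lay above all normoxic ones, by 0.18 on the log2 scale (exact two-sided permutation test, p = 0.1, adjusted p = 0.3 over 3 arm ratios), although hypoxia replicate 3 and normoxia replicate 3 nearly met. miR-424-3p itself averaged 1581 ± 120 CPM in hypoxia and 1556 ± 173 CPM in normoxia (SD, n = 3 each), and its log2 fold change was 0.02 (edgeR, adjusted p = 0.985), which turned to -0.02 with no filter on low counts.

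For miR-15b and miR-16 the 5p arm had more counts. The ratio of miR-15b-5p to miR-15b-3p averaged 2.61 ± 0.582 in hypoxia and 2.30 ± 0.582 in normoxia (SD, n = 3 each; exact permutation p = 0.6). The ratio of miR-16-5p to miR-16-2-3p averaged 4.66 ± 0.766 in hypoxia and 4.97 ± 1.08 in normoxia (SD, n = 3 each; exact permutation p = 0.8). miR-15b-3p had a log2 fold change of -0.03, which turned to 0.06 with both tables scaled together, and miR-16-2-3p one of 0.06. Neither passed the test (adjusted p = 0.985 for each from edgeR).

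**Figure D3:**
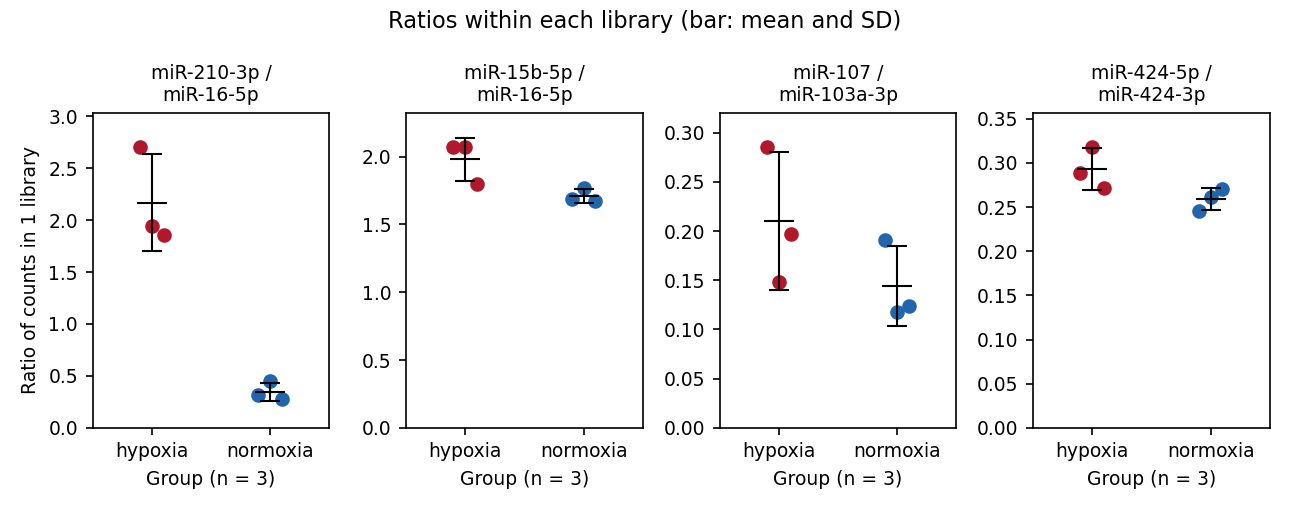
Ratios of counts within each library, hypoxia at the left and normoxia at the right of each panel, with points for libraries and bars for the mean and SD of 3. miR-210-3p to miR-16-5p stood at 1.85 to 2.71 in hypoxia and 0.280 to 0.446 in normoxia, the member ratio miR-15b-5p to miR-16-5p and the arm ratio of miR-424 did not overlap but differed far less, and miR-107 to miR-103a-3p overlapped.

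For miR-16, whose 5p arm is the same from both hairpins, the 3p arms differ and tell the hairpins apart. miR-16-2-3p, from the SMC4 intron, held 174 of the 182 counts of both miR-16 3p arms (95.6%). This is a share of 3p counts only, and how much miR-16-5p each hairpin gave was not tested. By library its share ran from 85.7% (24 of 28 counts, 95% Wilson interval 68.5% to 94.3%) in hypoxia replicate 3 to 100%, and miR-16-1-3p, from the DLEU2 intron, had 8 counts in all. The 5p arms of the neighbouring hairpins were as uneven, since miR-15b-5p held 1523 of the 1616 counts of miR-15a-5p and miR-15b-5p (94.2%, and 91.6% to 97.0% by library). Other arms were scarce. miR-15a-3p had 13 counts over all libraries, miR-503-3p had 30, miR-195-3p had 2 and miR-103a-2-5p had 21, while miR-103a-1-5p had 0, which allows up to 2.16 CPM, unscaled by TMM, by counting error alone. Reads are not independent molecules, so these intervals and floors cover counting error only.

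As a reference for miR-210-3p, miR-16-5p gave nearly the same difference as scaling to the whole miRNA table. This, like the range over references below, follows from each reference's own log2 fold change in the same libraries (-0.02 for miR-16-5p). It is no separate test of a reference. miR-210-3p had 368, 322 and 230 counts in hypoxia, against 42, 54 and 40 in normoxia. Divided by miR-16-5p in the same library it stood at 2.71, 1.94 and 1.85 in hypoxia, against 0.321, 0.446 and 0.280 in normoxia. Every hypoxic library lay far above every normoxic one, a 6.24-fold difference (two-sided exact permutation, p = 0.1, the smallest possible). Over a list of 11 reference miRNAs, which holds miR-16-5p and miR-103a-3p, this fold ran from 5.08 for miR-26a-5p to 7.12 for miR-103a-3p. The groups stayed apart with all 11. The list also holds miR-21-5p, and the study names miR-21 among the miRNAs most often aberrant in this cancer. With the whole miRNA table scaled to miR-16-5p in place of TMM, miR-210-3p rose by 2.64 on the log2 scale (edgeR, adjusted p = 0.00137), against 2.62 with TMM (edgeR, standard error 0.183, adjusted p = 3.99e-06).

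The other references did not pass the test either. Of the 11 references 2, miR-26a-5p and miR-21-5p, had all hypoxic libraries above all normoxic ones, and 0 had them all below. Over the 194 tested miRNAs 28 (14.4%) had groups that did not overlap. Their log2 fold changes were -0.09 for miR-191-5p, -0.07 for miR-423-3p, 0.05 for miR-423-5p, -0.07 for let-7a-5p and 0.12 for miR-21-5p, and 0.27 for miR-26a-5p was the largest. miR-93-5p stood at 0.02, miR-25-3p at -0.01 and miR-30c-5p at -0.01. The signs of miR-423-3p, let-7a-5p, miR-93-5p, miR-25-3p and miR-30c-5p turned in at least 1 alternative scaling or filter.

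The level of miR-16-5p varied by an SD of 0.0552 on the log2 scale over the 6 libraries, the fifth smallest of the 194 tested miRNAs. Its mean of 137 counts per library would give an SD of 0.123 from counting alone. The ratio of observed to counting SD was 0.447, the lowest of the 194, of which 35 (18.0%) lay below 1 and whose median was 1.59. A spread this small is below what the depth can resolve. The ratio was 1.32 for miR-15b-5p, 1.41 for miR-424-5p, 1.38 for miR-103a-3p, 0.892 for miR-107 and 1.99 for miR-15a-5p, so that miR-107 also lay below counting error and only miR-15a-5p lay above the median of the 194.

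**Figure D4:**
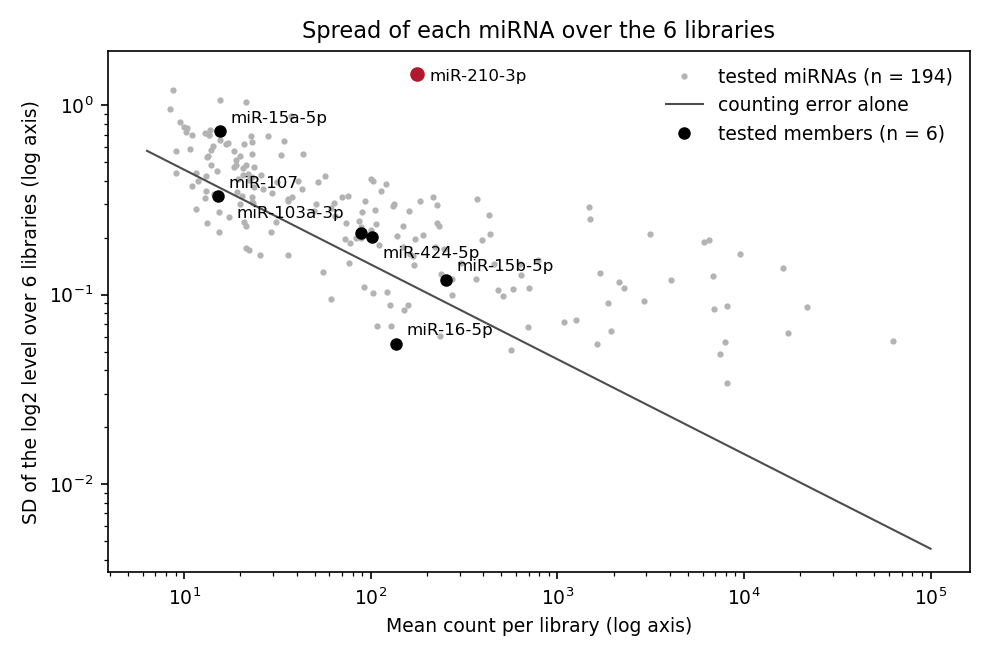
SD of the log2 level over the 6 libraries against the mean count per library, both on log axes, for the 194 tested miRNAs (grey), the 6 tested members (black) and miR-210-3p (red), with the line that counting error alone would give. miR-16-5p lies below the line, at 0.447 of it, and miR-15a-5p above, at 1.99.

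Over the 6 libraries the tested miRNAs most like miR-15b-5p in level were miR-210-3p (Pearson r = 0.844), miR-28-5p (0.822) and miR-22-3p (0.762), of 96 candidates at or above the median level. For miR-103a-3p they were miR-16-5p (0.784), miR-130b-3p (0.782) and let-7b-3p (0.779). These are descriptions over 6 points that share library scaling and, for miR-15b-5p, the division into hypoxia and normoxia.

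Fragments of the protein-coding host genes were read from the mRNA table, which in small RNA libraries counts short pieces of each transcript. None of the 4 hosts passed edgeR's test over 11082 features, of which 83 were called (0.749%). SMC4, a condensin subunit that hosts MIR15B and MIR16-2, had 944, 1322 and 1161 fragments in hypoxia and 1351, 1549 and 1282 in normoxia. After scaling it averaged 822 ± 139 CPM in hypoxia and 1029 ± 99.4 CPM in normoxia (SD, n = 3 each). Its log2 fold change was -0.32 (edgeR, standard error 0.111, adjusted p = 0.208). It was the only host with an unadjusted p under 0.05, a threshold that 1157 of the 11082 features (10.4%) passed, and with all 6 libraries its adjusted p ran from 0.0752 to 0.468 over the alternatives, those of DESeq2 and limma-voom included. PANK1, PANK2 and PANK3, pantothenate kinases of coenzyme A synthesis, had log2 fold changes of 0.25, 0.01 and -0.02 (adjusted p from 0.750 to 0.993 from edgeR), and the sign of PANK2 turned with no filter and by limma-voom.

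Among 29 genes reported elsewhere as targets of either family, 24 could be tested. Of these 1 was called higher and 0 lower, against 83 of all 11082 features called (0.749%). The median log2 fold change was -0.04, against -0.01 over all 11082 features. Of 20 reported targets of the miR-15/miR-16/miR-424 family, 18 were tested and VEGFA alone was called, as higher. VEGFA, the angiogenic growth factor that is itself a textbook gene of low oxygen, had 877, 854 and 663 fragments in hypoxia, against 452, 267 and 499 in normoxia. The hypoxic libraries lay well above the normoxic ones, at 571 ± 44.5 CPM in hypoxia and 300 ± 91.2 CPM in normoxia (SD, n = 3 each), and the log2 fold change was 0.93 (edgeR, standard error 0.140, adjusted p = 3.52e-04). The call did not hold by DESeq2 (adjusted p = 0.0955) or with robust estimation in edgeR (adjusted p = 0.162).

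The cell cycle and apoptosis genes of the list did not pass the test. The log2 fold change was -0.18 for CCND1, the cyclin D1 gene, 0.08 for CCNE1, the cyclin E1 gene, and -0.26 for BCL2, the apoptosis inhibitor. With 1 library left out CCND1 ran from -0.26 to -0.05 (the last without normoxia replicate 2), and BCL2 from -0.55 without hypoxia replicate 2 to -0.03 without hypoxia replicate 3. CUL2, a scaffold of the ubiquitin ligase that marks HIF-α subunits, had 209, 242 and 213 fragments in hypoxia and 209, 246 and 213 in normoxia, and its log2 fold change was -0.05. Of the 18 tested, CHEK1 and FGFR1 were lower and VEGFA and SIAH1 higher at an unadjusted p under 0.05, beside the 10.4% of all features given above. CHEK1, FGFR1 and SIAH1 were named after their values were seen. CHEK1, a checkpoint kinase of DNA replication, had 115, 87 and 97 fragments in hypoxia, against 161, 135 and 132 in normoxia, and its log2 fold change was -0.55 (edgeR, adjusted p = 0.0879). It was called lower when no filter on low counts was used (adjusted p = 0.0353).

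Of 10 reported targets of miR-103 and miR-107 7 were tested. By edgeR 0 were called and 0 had an unadjusted p under 0.05, a threshold that 10.4% of all features passed. DESeq2 and limma-voom called 0 as well. DICER1, the nuclease that cuts miRNAs from their hairpins, stood at -0.23 on the log2 scale (edgeR, adjusted p = 0.666). AGO1, an Argonaute that carries miRNAs, stood at -0.35 (adjusted p = 0.513), and ARNT, the partner of HIF-α subunits, at -0.37 (adjusted p = 0.659). DICER1 was -0.38 when normoxia replicate 1 was left out and -0.05 when normoxia replicate 2 was.

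**Figure D5:**
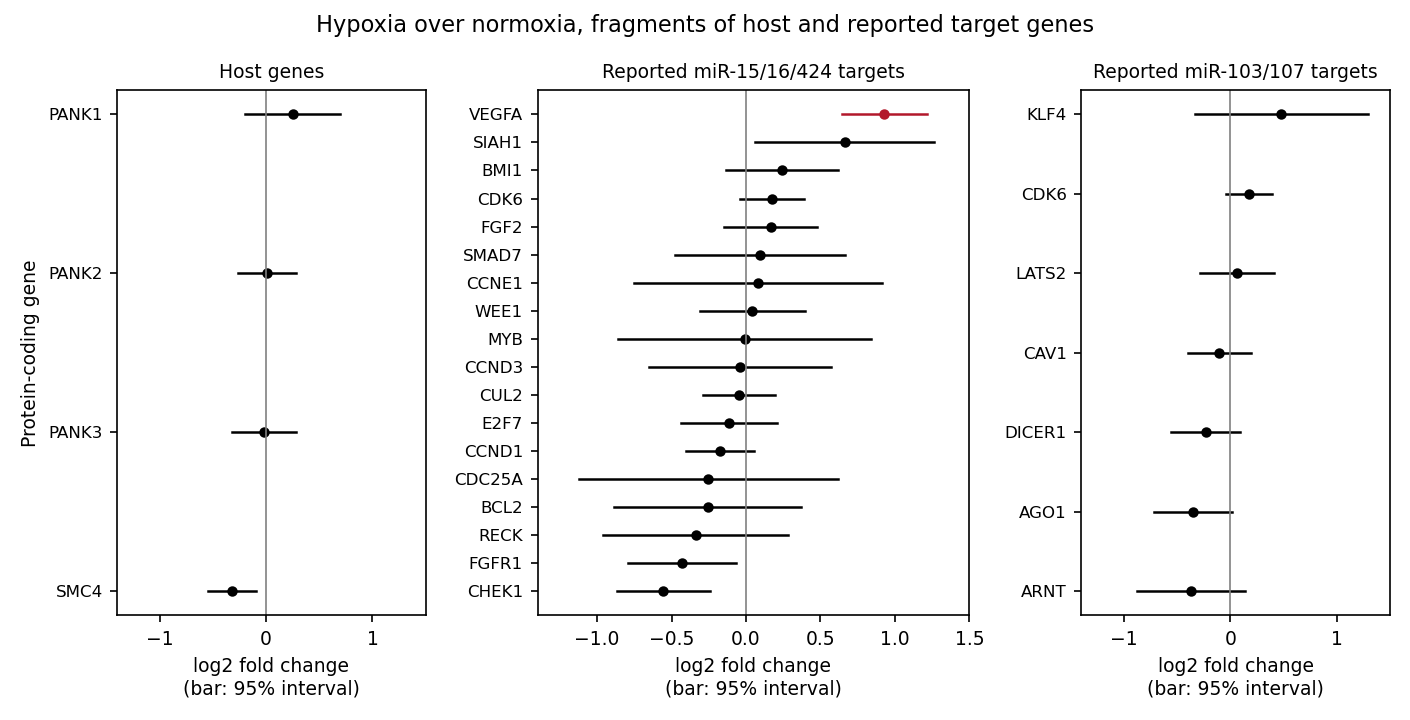
Log2 fold change, hypoxia over normoxia, with its 95% interval from edgeR, of the fragments of the 4 host genes (left), 18 reported targets of the miR-15/miR-16/miR-424 family (middle) and 7 reported targets of miR-103 and miR-107 (right). Only VEGFA (red, 0.93) passed an adjusted p of 0.05.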

How the data were processed

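The authors trimmed adapters and poly(A) with Cutadapt 1.17, set aside reads of housekeeping small RNAs, aligned the remainder stepwise to miRBase 22 mature and precursor miRNAs and to GENCODE 28 transcripts, and counted them with eXpress. The deposited tables hold raw counts for each mature miRNA and for each protein-coding gene. The precursor and lncRNA counts were not used here.

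The miRNA table and the mRNA table were each fitted alone with edgeR 4.0.16 (filterByExpr with a minimum count of 10, TMM, glmQLFit, glmQLFTest) in R 4.3.3, over all 6 libraries, with Benjamini-Hochberg adjustment over the 194 miRNAs or 11082 mRNA features tested. A call is an adjusted p under 0.05. CPM are counts scaled to 1000000 within the same table with TMM factors, and log2 SDs over libraries used a pseudocount of 0.5. Ratios were tested by exact two-sided permutation (scipy 1.17.1). Alternatives were DESeq2 1.42.0, limma-voom (limma 3.58.1), no filter, total count scaling, joined tables, scaling to miR-16-5p, a replicate block, each library left out and, added after seeing the data, robust estimation.

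Named were all members, both arms of their hairpins, miRNAs sharing a seed, 11 reference miRNAs, miR-210-3p, the host genes, every called target (VEGFA) and 7 further targets (CCND1, CCNE1, BCL2, CUL2, DICER1, AGO1 and ARNT), and the 3 miRNAs most like the top member of each family. The members and lists were chosen with earlier results of these data known. Sequences are from RefSeq (GRCh38.p14). Endothelial and blood markers were also read, and summed to 42 to 55 and 28 to 48 fragments in hypoxia, and 31 to 54 and 24 to 37 in normoxia. Of the epithelial and mesenchymal markers VIM was called higher (log2 fold change 0.39, adjusted p = 0.0385 from edgeR) and the other 4 tested were not. Some listed marker genes are not reported here.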

Additional observations from a re-analysis of the deposited data

How the results depend on the processing

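Over 14 alternatives, 83 refitted values of the 6 tested members gave 0 calls. The lowest adjusted p was 0.368, for miR-15b-5p by edgeR with the tables joined (log2 fold change 0.29). In that setting alone 1 member had an unadjusted p under 0.05. Of the 194 miRNAs tested there, 27 were higher and 3 lower at that threshold. Of the 83 values 4 turned sign, 3 for miR-15a-5p with 1 library left out and 1 for miR-16-5p. Without 1 library the log2 fold changes ran from -0.95 to 0.14 for miR-15a-5p, 0.14 to 0.24 for miR-15b-5p, -0.06 to -0.02 for miR-16-5p, 0.09 to 0.30 for miR-424-5p, -0.32 to -0.09 for miR-103a-3p and 0.14 to 0.53 for miR-107. miR-210-3p ran from 2.43 to 2.79 and VEGFA from 0.71 to 1.10, and both were called each time.

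Other small values also turned sign. With the tables joined they were 0.067 for miR-16-5p, 0.059 for miR-15b-3p, 0.025 for miR-423-3p, 0.021 for let-7a-5p, 0.076 for miR-25-3p and 0.091 for miR-30c-5p. With no filter they were -0.018 for miR-424-3p, -0.019 for miR-93-5p and -0.0065 for PANK2. Scaled to miR-16-5p, miR-25-3p was 0.0088 and miR-30c-5p 0.015, and miR-30c-5p was 0.00027 by total counts. By limma-voom miR-30c-5p was 0.018 and PANK2 -0.0011. With 1 library left out, values spanned 0 for miR-15b-3p (-0.18 to 0.21), miR-16-2-3p (-0.11 to 0.15), miR-424-3p (-0.085 to 0.093), miR-423-3p (-0.38 to 0.084), miR-93-5p (-0.10 to 0.070), miR-25-3p (-0.067 to 0.017), miR-30c-5p (-0.19 to 0.082), PANK3 (-0.14 to 0.18), PANK2 (-0.055 to 0.11), CCNE1 (-0.18 to 0.37) and CUL2 (-0.099 to 0.033). They kept their sign for SMC4 (-0.42 to -0.19), PANK1 (0.15 to 0.35), AGO1 (-0.48 to -0.19) and ARNT (-0.53 to -0.17).

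Called miRNAs numbered 1 higher and 0 lower, against 2 and 1 by DESeq2, 2 and 1 with no filter, 4 and 1 with tables joined and 1 and 1 with robust estimation; without 1 library 1 to 2 were higher, the 2 without hypoxia replicate 3. Called targets numbered 1 higher and 0 lower, against 0 higher by DESeq2 and with robust estimation, and 1 lower with no filter. Called mRNA features numbered 66 higher and 17 lower, against 34 and 4 by DESeq2, and 44 lower with no filter. Without 1 library they ran from 25 to 72 higher and 4 to 27 lower: 25 and 4 without hypoxia replicate 2, 36 and 9 without normoxia replicate 1, 9 lower without hypoxia replicate 1, 6 lower without normoxia replicate 3 and 27 lower without normoxia replicate 2. The cause was not tested.

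Replicate numbers are shared by the groups, but same-numbered libraries did not deviate together (correlations of -0.11, 0.01 and -0.08 for miRNAs). With a replicate block 0 members and 1 miRNA were called, and 7 mRNA features were lower. Among the tested members, miR-15a-5p and miR-107 had the fewest counts, 7 to 31 per library, and so the largest counting error. The spread of miR-15a-5p was above its counting error (SD of 0.728 against 0.366 on the log2 scale), and its cause was not tested.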
